A study of Mus musculus with 8 samples.

Results

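Vector-positive astrocytes of GR-KO animals were compared with vector-negative astrocytes of the same animals. A nucleus was taken as positive when it held at least 1 unique molecular identifier (UMI, 1 captured RNA molecule) summed over the vector features EGFP and Cre, and as negative when it held 0. The nuclei were thus chosen by their EGFP and Cre UMIs, and these 2 features are described without a test. Of 4362 nuclei that the authors annotated as astrocytes in the 4 GR-KO libraries, 480 were positive and 3882 were negative. The series holds single-nucleus RNA-seq of primary visual cortex (V1) at postnatal day 21 (P21), 102330 nuclei in 8 libraries, of which 9486 were astrocytes. All mice were GRfl/fl, that is, both copies of the glucocorticoid receptor gene (Nr3c1) carried loxP sites. At birth, GR-KO mice received an AAV2/5 vector in which the GfaABC1D promoter drives Cre and, after a self-cleaving peptide, EGFP-CAAX, followed by the 4x6T and WPRE elements. GR-Con mice received the same vector with an inactive Cre, ΔCre. NR animals of each genotype saw light as usual and DR animals were kept in darkness, with 2 animals per group, 1 male and 1 female, and 1 library per animal.

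Several features of the design limit what a positive or a negative nucleus is. Per the study's methods, DRAQ5-stained nuclei outside the GFP gate were sorted, whereas the deposited protocol names DRAQ5 alone, so whether such a gate was applied is uncertain. The status of a nucleus rests on its RNA and not on fluorescence, and EGFP-CAAX is a membrane-bound label. A nucleus with 0 vector UMIs may carry the vector without a captured molecule, so the negative nuclei cannot be told apart into transduced and untransduced ones. The GfaABC1D promoter is a compact GFAP promoter that drives expression mainly in astrocytes. The counts come from the 3′ ends of transcripts and do not show whether the floxed exon of Nr3c1 was removed in a given nucleus.

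The glucocorticoid receptor is a nuclear receptor that moves to the nucleus when corticosterone binds it and then raises or lowers the transcription of its target genes. In astrocytes it is known to drive genes of metabolism, transport and circadian timing, with Fkbp5, Tsc22d3 and Zbtb16 among the targets shared by many tissues. The transcription factor p53 acts in the DNA damage response, where it induces genes of cell cycle arrest and apoptosis, among them Cdkn1a, Bax and its own inhibitor Mdm2.

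Vector UMIs were sparse. In GR-KO astrocytes, 15.2% of nuclei were positive in the NR male (140 of 924; exact binomial 95% interval 12.9 to 17.6%), 10.5% in the NR female (103 of 980; 8.66 to 12.6%), 12.3% in the DR male (135 of 1099; 10.4 to 14.4%) and 7.51% in the DR female (102 of 1359; 6.16 to 9.04%). The mean over libraries was 11.4% ± 3.20 (SD, n = 4). These intervals cover counting error only. Oligodendrocytes and their precursors, cell types in which the promoter should be silent, gave 8 positive nuclei of 4001 in the same libraries (mean over libraries 0.197%) at median depths of 6187 to 13473 UMIs, against 4889 to 12124 UMIs in the astrocytes.

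Of the 480 positive nuclei, 280 held EGFP UMIs alone, 120 held Cre UMIs alone and 80 held both. The threshold was close to the detection limit, since 324 positive nuclei held 1 UMI and lay next to the 3882 nuclei at 0. A further 92 held 2, 37 held 3, 15 held 4, 10 held 5 and 2 held 6 or more, up to 7. In GR-Con libraries 328 of 5124 astrocytes were positive (mean 6.88% of nuclei), all by EGFP, as 0 GR-Con astrocytes held a Cre UMI (exact 95% upper limits of 0.205 to 0.371% per library). Another vector feature, delCre, was not part of the rule and is described without a test. It was found in 6.93 to 18.6% of the positive and 1.29 to 1.65% of the negative GR-KO nuclei compared below, in libraries that received active Cre, and in 6.02 to 13.7% of the positive and 0.803 to 2.78% of the negative GR-Con nuclei. Whether RNA of the Cre vector was counted under delCre was not tested.

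Because a deeper nucleus is more likely to yield a vector UMI, each positive nucleus was set against 3 negative nuclei of its own library within 0.2 log2 units in total UMIs. Of the astrocyte barcodes, 6 were found in more than 1 library. Matching kept 476 of the 480 positive nuclei with 1428 negatives in GR-KO, and 325 positives with 975 negatives in GR-Con. The UMIs were then summed per library and status, which gave 539086 to 1318034 UMIs in the positive and 1614268 to 3948592 in the negative GR-KO sums. Median depth differed by 0.125 UMIs on average in GR-KO, which the matching on depth fixed in advance. Positive nuclei nevertheless held more detected genes, by 51.9 on average (42 to 64, higher in 4 of 4 libraries). An exact permutation test over sign flips of the 4 pairs, two-sided, gave p = 0.125, the smallest p that 4 pairs allow. The number of detected genes was higher in 4 of 4 GR-Con libraries as well, by 31.1.

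Markers of other cell types were summed in the matched nuclei. Genes enriched in neurons took 3.74% ± 0.452 of UMIs in positive and 3.78% ± 0.421 in negative GR-KO nuclei (SD, n = 4, exact permutation p = 0.25). Of 41 listed markers of other cell types, 20 had enough counts to be tested across genes, and 0 were higher and 1 was lower, Pdgfrb, a pericyte receptor that is also listed here among AAV entry factors (log2 fold change −0.37, a call lost in 8 of 17 alternatives). The summed oligodendrocyte markers were higher in positive nuclei in 4 of 4 libraries (147 against 127 CPM, that is, counts per 1000000 UMIs of the sum), as were the endothelial markers at very low levels (6.18 against 3.49 CPM), and the smooth muscle and pericyte markers were lower in 4 of 4 (86.4 against 107.9 CPM). The 11 astrocyte markers, among them Slc1a2 and Slc1a3 for the main glutamate transporters, summed to 13980 CPM in positive and 15717 CPM in negative nuclei, lower in 4 of 4 libraries. In GR-Con the astrocyte markers were lower in 4 of 4 libraries as well (15935 against 16654 CPM). The GR-Con oligodendrocyte markers were lower in positive nuclei in 4 of 4 libraries (87.8 against 101.9 CPM), as were the endothelial ones (2.72 against 4.47 CPM), and the microglial markers were higher in 4 of 4 (39.1 against 30.0 CPM). The part of these differences in the gene results was not tested.

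Of 11188 genes tested, 324 (2.9%) differed between positive and negative GR-KO astrocytes at an adjusted p under 0.05, 128 higher (1.14%) and 196 lower (1.75%). All adjusted p-values are Benjamini-Hochberg values over all genes tested, from edgeR's quasi-likelihood test with the library as a block. A gene was tested when at least 2 of the 8 sums reached 6.82 CPM. Of the genes tested, 527 reached this through the positive nuclei alone, of which 15 passed as higher, and 267 through the negative nuclei alone, of which 12 passed as lower. Among the 324 genes, 43 were higher and 19 lower by more than 2-fold. Long genes were frequent among them, with a median gene span of 74.8 kb in the genes higher and 134 kb in the genes lower, against 30.6 kb in all genes tested. Genes enriched in neurons made up 14.1% of the genes higher (18) and 9.18% of the genes lower (18), against 6.94% of all genes tested. The calls depended on pairing the sums by library, since 119 genes passed without the block (63 higher and 56 lower), and DESeq2 called 112. Without the NR male 182 genes passed, and without the DR female 190.

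Etnppl, Fkbp5, Hif3a, Cdh19, Asic2 and Phyhd1 were lower in positive than in negative GR-KO nuclei. Etnppl (chr3:130617448-130637521, plus strand, mm10), which encodes the phospho-lyase that breaks down phosphoethanolamine and marks mature astrocytes, had 1.57, 3.04, 3.08 and 9.28 CPM in the positive nuclei of the NR male, NR female, DR male and DR female, in that order, as for all values below. The negative nuclei had 41.2, 29.9, 36.4 and 56.4 CPM. The 2 sets did not overlap, and the log2 fold change was −3.48 ± 0.28 (SE, adjusted p = 1.55e-10), from 13 UMIs in the positive and 437 in the negative nuclei. Negative GR-KO nuclei were themselves below every GR-Con library, where Etnppl ranged from 81.0 to 289.9 CPM in positive and from 101 to 280.5 CPM in negative nuclei, lowest in the DR female in both.

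Fkbp5 (chr17:28399094-28517527, minus strand), a co-chaperone of the receptor and one of its best known targets, had 5.50, 3.79, 0 and 3.71 CPM in positive and 28.6, 6.84, 9.75 and 12.4 CPM in negative nuclei (log2 fold change −2.05 ± 0.36, adjusted p = 3.65e-04). Every positive value lay under every negative one, although the positive values rested on 14 UMIs in all and the gene was tested through the negative nuclei alone. The adjusted p no longer passed without the NR male, the library with the highest negative value, without the block or with DESeq2. Hif3a (chr7:17031507-17062427, minus strand), an alpha subunit of the hypoxia-inducible factors, had 36.1, 48.6, 38.5 and 46.4 CPM in positive and 89.1, 81.3, 72.9 and 68.8 CPM in negative nuclei. The groups did not overlap (−0.94 ± 0.13, adjusted p = 8.64e-06).

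Cdh19 (chr1:110888326-110977584, minus strand), a cadherin of glial cells, had 44.7, 53.1, 66.2 and 76.1 CPM in positive and 122, 110.2, 90.3 and 97.9 CPM in negative nuclei. It was lower in each library, by −0.96 ± 0.13 on the log2 scale (adjusted p = 8.17e-06). Asic2 (chr11:80880169-81968457, minus strand), a subunit of acid-sensing ion channels, had 115, 148, 72.3 and 89.1 CPM in positive and 267, 217, 228 and 259 CPM in negative nuclei. The highest positive value was again under the lowest negative one (−1.12 ± 0.11, adjusted p = 1.03e-08). Phyhd1 (chr2:30266203-30282149, plus strand), a dioxygenase related to the enzyme that starts phytanic acid breakdown, had 10.2, 5.31, 9.23 and 5.57 CPM in positive and 25.7, 13.9, 17.4 and 13.6 CPM in negative nuclei (−1.28 ± 0.26, adjusted p = 1.88e-03), a call that was lost without the NR male, with DESeq2 and with Cre alone as the criterion.

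**Figure D1:**
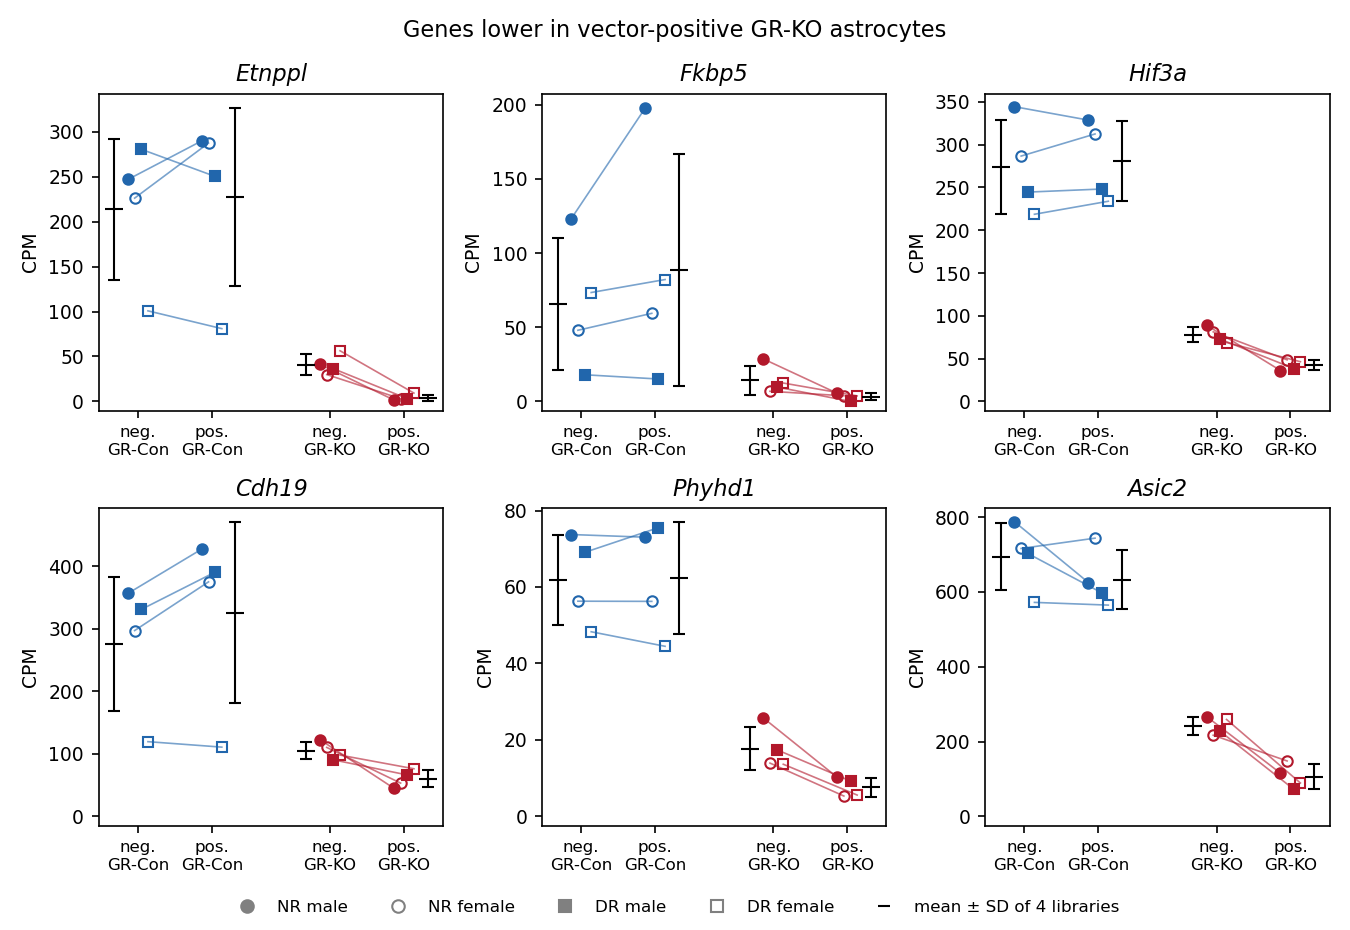
CPM of 6 genes (y axis, linear, a scale per panel) in vector-negative (neg.) and vector-positive (pos.) astrocytes of each library, with a line joining the 2 sums of 1 animal, GR-Con in blue and GR-KO in red, and the mean ± SD of 4 libraries in black. In GR-KO the positive values lie under the negative values of all 4 libraries in every panel, for Etnppl 1.57 to 9.28 against 29.9 to 56.4 CPM, while in GR-Con the lines run in both directions. All 6 genes passed as lower in these same sums, so the separation of their values adds no support. Etnppl and Fkbp5 were tested through the negative nuclei alone. How many of all genes tested separate in this way was not examined.

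Genes lower in GR-KO were also taken from the study's bulk nuclear RNA-seq of sorted GFP+ astrocytes from other animals, as the 30 names with the smallest p. They are a selected top of that table and do not stand for all of it. All 27 tested members had a negative log2 fold change and 16 passed as lower (1.75% of all genes did), with a median of −0.68 against 0.0026 for all genes tested. Etnppl and Nrros were tested through their negative nuclei alone, as were Arhgef28, Prom1 and Slc24a4, so the count and median over tested members partly reflect the filter. Fitted with no filter, all 30 gave 18 lower and a median of −0.77. In GR-Con 0 of 29 passed and the median was −0.02. Beyond the genes above, the members that passed included Lrrc8c, a subunit of volume-regulated anion channels (−0.86), Zbtb16, the transcription factor PLZF (−1.04), Folh1, a glutamate carboxypeptidase (−0.91), Gpt2, the mitochondrial alanine transaminase (−0.80), Masp1, a serine protease of the lectin complement pathway (−0.87), and Spon1, which encodes F-spondin (−0.80). Nrros (−1.36), Smim3 (−0.68), Scrg1 (−0.68), Ccnd3 (−0.57), Fam107a (−0.56) and 9330159F19Rik (−0.47) made up the rest. Over the alternative settings 9 to 19 members passed, with medians of −0.81 to −0.66. With DESeq2 the calls of Phyhd1, Masp1, Nrros, Ccnd3, Scrg1, Smim3 and Spon1 were lost, and without the NR male those of Phyhd1, Masp1, Nrros, Ccnd3, Scrg1 and 9330159F19Rik. In the test of the difference between genotypes given below, only Etnppl, Cdh19, Hif3a and Lrrc8c of this list passed. Masp1 was about as low in GR-Con (−0.82, adjusted p = 0.131), with a difference between genotypes of −0.05 (adjusted p = 0.997).

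A further set held 10 genes named in the study's text, some as markers of adult astrocytes and others as genes bound by the receptor, and overlapped this list in part. Of the 10, 6 were lower (1.75% of all genes were), with a median of −0.46 against 0.0026 for all genes: Etnppl, Zbtb16, Fam107a, Aldh1a1, a retinaldehyde dehydrogenase (−0.68, adjusted p = 7.87e-07), Aldoc, the brain aldolase (−0.46), and Ezr, the membrane linker ezrin of fine astrocyte processes (−0.46). Aldh1a1 had 136, 197, 100 and 76.1 CPM in positive and 216, 299.9, 151 and 142 CPM in negative nuclei. Its positive and negative values overlapped between animals while each animal's positive value was the lower one. Gjb6, Cables1, Mt1 and Mt2 had log2 fold changes of −0.29 to −0.26 that did not pass. Etnppl was tested through the negative nuclei alone, and with no filter 8 of the 10 were lower (median −0.49). The calls of Aldoc and Ezr were lost with DESeq2 and without the block.

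Classical glucocorticoid receptor targets did not all follow. Of 15 tested, Fkbp5, Zbtb16 and Hif3a were lower and Cdkn1a was higher, where 1.75% of all genes were lower and 1.14% higher. Fkbp5 was tested through the negative nuclei alone and Cdkn1a through the positive nuclei alone, so this count partly reflects the filter. Fitted with no filter, all 17 gave 3 lower and 1 higher (median −0.32). Hif3a and Zbtb16 are also in the list lower in bulk GR-KO. Cdkn1a is also in the p53 list given below and was higher in GR-Con too (1.50). Tsc22d3, which encodes the anti-inflammatory leucine zipper protein GILZ, had 33.0, 21.2, 24.6 and 35.3 CPM in positive and 45.2, 29.6, 28.2 and 31.0 CPM in negative nuclei (−0.33 ± 0.17, adjusted p = 0.419). Its DR female ran opposite to the other 3 libraries. Mt1 and Mt2, metallothioneins, gave −0.26 ± 0.12 (adjusted p = 0.376) and −0.29 ± 0.20 (adjusted p = 0.641), and Per1, a circadian repressor, gave −0.46 ± 0.16 (adjusted p = 0.144). Nr3c1 itself had 352, 289, 280.0 and 301 CPM in positive and 275, 261, 297 and 292 CPM in negative nuclei (0.12 ± 0.07, adjusted p = 0.533), a readout that does not show the deletion. None of the 7 receptor and cofactor genes tested passed, Nr3c2, Hsd11b1 and Ncoa1 included.

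The GR-Con libraries, whose vector lacks active Cre, were put through the same contrast. There, 67 of 9681 genes tested (0.692%) differed between positive and negative nuclei, 30 higher (0.31%) and 37 lower (0.382%). The number fell to 6 without the block, to 26 without the NR male and to 31 without the DR male. The GR-Con sums were smaller, with 320156 to 876883 UMIs in positive nuclei against 539086 to 1318034 in GR-KO. Genes were tested there from 10.9 CPM in place of 6.82 CPM. Of these, 482 reached it through the positive nuclei alone (6 passed as higher) and 424 through the negative alone (2 as lower). The part of depth in the number of genes called was not tested. Of the genes higher in GR-KO, 115 were tested in GR-Con, and 104 of them had a positive log2 fold change there (median 0.38). Of the genes lower in GR-KO, 192 were tested in GR-Con, and 167 had a negative one (median −0.15). Among all 9634 genes tested in both, 4977 were positive and 4657 negative in GR-Con. Etnppl had a log2 fold change of 0.03 ± 0.10 in GR-Con (adjusted p = 0.982), Hif3a of 0.04 ± 0.08 (adjusted p = 0.976), Cdh19 of 0.19 ± 0.09 (adjusted p = 0.589) and Fkbp5 of 0.36 ± 0.15 (adjusted p = 0.532). Fkbp5 in GR-Con spread widely between animals, from 15.1 to 198 CPM in positive nuclei.

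The difference between the genotypes was tested directly, as the log2 fold change in GR-KO minus that in GR-Con. It passed for 18 of 11372 genes (0.158%), 14 lower (0.123%) and 4 higher (0.0352%). Etnppl differed by −3.50 ± 0.31 (adjusted p = 4.59e-13), Fkbp5 by −2.41 ± 0.38 (adjusted p = 5.07e-05), Cdh19 by −1.14 ± 0.16 (adjusted p = 9.15e-07), Asic2 by −0.98 ± 0.13 (adjusted p = 1.55e-07) and Hif3a by −0.98 ± 0.16 (adjusted p = 5.07e-05). Lrrc8c (−0.79), Aldh1a1 (−0.76), Ubash3b (−0.82), Mgat4c (−0.76), Kcnd2 (−0.60), Mdga2 (−0.35), Kirrel3 (−0.30) and Gpc5 (−0.25) were the other genes lower in the same direction, together with Cntn1. Phyhd1 (−1.26) and Zbtb16 (−0.81) each had an adjusted p of 0.0599 and did not pass. Without the block 0 of the 18 passed, DESeq2 kept 8, and 8 passed whichever library was left out. Positive nuclei were defined by EGFP or Cre in GR-KO but were all positive by EGFP in GR-Con. With EGFP alone as the criterion in both, 15 of the 18 passed, without Lrrc8c, Pde10a and Ubash3b.

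Cntn1, a cell adhesion molecule of the contactin family, was the 1 gene called in opposite directions. In GR-KO it had 57.3, 47.0, 30.8 and 39.0 CPM in positive and 81.4, 75.5, 56.4 and 91.7 CPM in negative nuclei (−0.75 ± 0.13, adjusted p = 1.86e-04). In GR-Con it had 296, 299.9, 309 and 234 CPM in positive and 162, 232, 222 and 144 CPM in negative nuclei (0.61 ± 0.09, adjusted p = 1.21e-04). Positive nuclei were thus the lower ones in all 4 GR-KO animals and the higher ones in all 4 GR-Con animals, and the difference between genotypes was −1.36 ± 0.16 (adjusted p = 9.92e-09).

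The 4 genes with a more positive difference in GR-KO were Igfbp5 (1.30), Car10 (1.07), Pde10a (0.61) and Csmd1 (0.41). Car10, a carbonic anhydrase-related protein without enzyme activity, had 270.1, 138, 203 and 228 CPM in positive and 115, 92.4, 89.8 and 90.4 CPM in negative GR-KO nuclei (1.04 ± 0.10, adjusted p = 3.82e-09). These values did not overlap, and in GR-Con positive nuclei had 25.0 to 70.7 CPM and negative ones 27.1 to 65.4 CPM (−0.04 ± 0.18, adjusted p = 0.992). Igfbp5, a secreted binder of insulin-like growth factors, differed through the GR-Con side, where it was lower in positive nuclei (−1.22 ± 0.25, adjusted p = 6.23e-03), and gave 0.08 ± 0.12 in GR-KO (adjusted p = 0.876). Pde10a, a phosphodiesterase, was also lower in positive GR-Con nuclei (−0.66 ± 0.10, adjusted p = 1.75e-04) and gave −0.05 ± 0.08 in GR-KO (adjusted p = 0.897), whereas Csmd1 was higher in GR-KO (0.47) and gave 0.06 in GR-Con (adjusted p = 0.908).

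**Figure D2:**
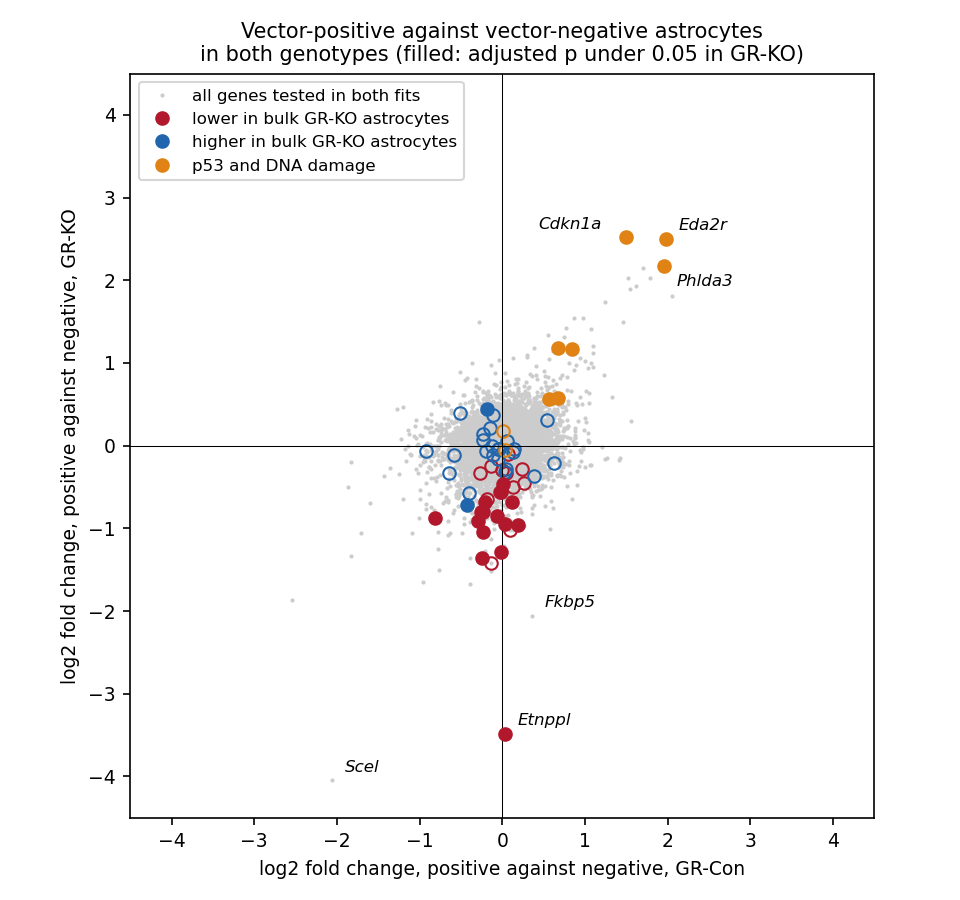
Log2 fold change of vector-positive against vector-negative astrocytes in GR-Con (x axis) and in GR-KO (y axis), 1 point per gene tested in both, with 3 gene lists in colour, filled where the gene passed in GR-KO. Etnppl lies at 0.03 in GR-Con and −3.48 in GR-KO, whereas Cdkn1a, Eda2r and Phlda3 lie to the upper right and Scel to the lower left.

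A list of 12 genes that p53 is known to induce was examined in the same way. The list was chosen with earlier results of these data known, so its counts are not an independent test. In GR-KO 7 of 10 tested members were higher, against 1.14% of all genes, and 0 lower, with a median log2 fold change of 1.16. Cdkn1a, Eda2r, Phlda3 and Sesn2 were tested through the positive nuclei alone, so this count and median partly reflect the filter, whereas Trp53inp1, Ccng1, Bax and Mdm2 reached it in either group. Fitted with no filter, all 12 gave 7 higher, Cdkn1a, Eda2r and Phlda3 included, and a median of 1.13. In GR-Con 4 of 9 were higher, against 0.31% of all genes, with a median of 0.68, and 0 passed there with DESeq2, without the block or at 2 or more vector UMIs, and 1 to 3 when 1 library was left out. There too Cdkn1a, Eda2r and Phlda3 were tested through the positive nuclei alone, and with no filter 5 of 12 were higher. The difference between genotypes passed for 0 of 10. Cdkn1a (chr17:29090976-29100727, plus strand), which encodes the cell cycle inhibitor p21, had 17.3, 12.9, 16.9 and 22.3 CPM in positive and 1.31, 2.03, 4.62 and 5.58 CPM in negative GR-KO nuclei. Positive values were all above the negative ones (2.52 ± 0.35, adjusted p = 1.01e-05). In GR-Con it had 27.9, 28.1, 21.6 and 29.7 CPM in positive and 7.87, 3.13, 6.47 and 15.2 CPM in negative nuclei (1.50 ± 0.31, adjusted p = 6.89e-03), which did not overlap either.

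Eda2r (chrX:97333840-97377216, minus strand), a receptor of the tumour necrosis factor family, had 30.6, 12.9, 43.1 and 26 CPM in positive and 3.42, 4.31, 7.18 and 3.72 CPM in negative GR-KO nuclei. The log2 fold change was 2.50 ± 0.27 in GR-KO (adjusted p = 1.23e-07) and 1.98 ± 0.30 in GR-Con (adjusted p = 1.24e-04), with no overlap in either genotype. Phlda3 (chr1:135766119-135769136, plus strand), a repressor of Akt signalling, had 18.8, 11.4, 10.8 and 3.71 CPM in positive and 3.68, 1.27, 2.05 and 4.34 CPM in negative GR-KO nuclei (2.18 ± 0.40, adjusted p = 6.76e-04). The DR female was the 1 library in which its positive value was not the higher one. In GR-Con Phlda3 gave 1.95 ± 0.53, which did not pass (adjusted p = 0.0966).

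Trp53inp1 (chr4:11156431-11174379, plus strand), a stress-induced nuclear protein, had 138, 75.1, 95.4 and 85.4 CPM in positive and 47.3, 33.9, 47.7 and 48.9 CPM in negative GR-KO nuclei (1.19 ± 0.12, adjusted p = 1.62e-08). Ccng1 (chr11:40748552-40755311, minus strand), which encodes cyclin G1, had 61.2, 31.9, 30.8 and 53.8 CPM against 20.5, 17.7, 21 and 18.6 CPM (1.16 ± 0.17, adjusted p = 3.54e-05). Neither gene's groups overlapped, and both were also higher in GR-Con (0.67 and 0.84). Bax, a pore-forming promoter of apoptosis, rose by 0.57 ± 0.14 (adjusted p = 0.0113) and Mdm2, the ubiquitin ligase that degrades p53, by 0.56 ± 0.12 (adjusted p = 4.61e-03), and in GR-Con they gave 0.68 and 0.56, which did not pass. Sesn2 (1.16, adjusted p = 0.188), Zmat3 (0.18) and Plk2 (−0.05) did not pass in GR-KO. Over the alternative settings 4 to 7 list members passed in GR-KO and 0 to 6 in GR-Con, with no member lower. The calls of Bax and Mdm2 in GR-KO were lost with DESeq2 and without the DR male, and that of Bax also without the DR female.

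**Figure D3:**
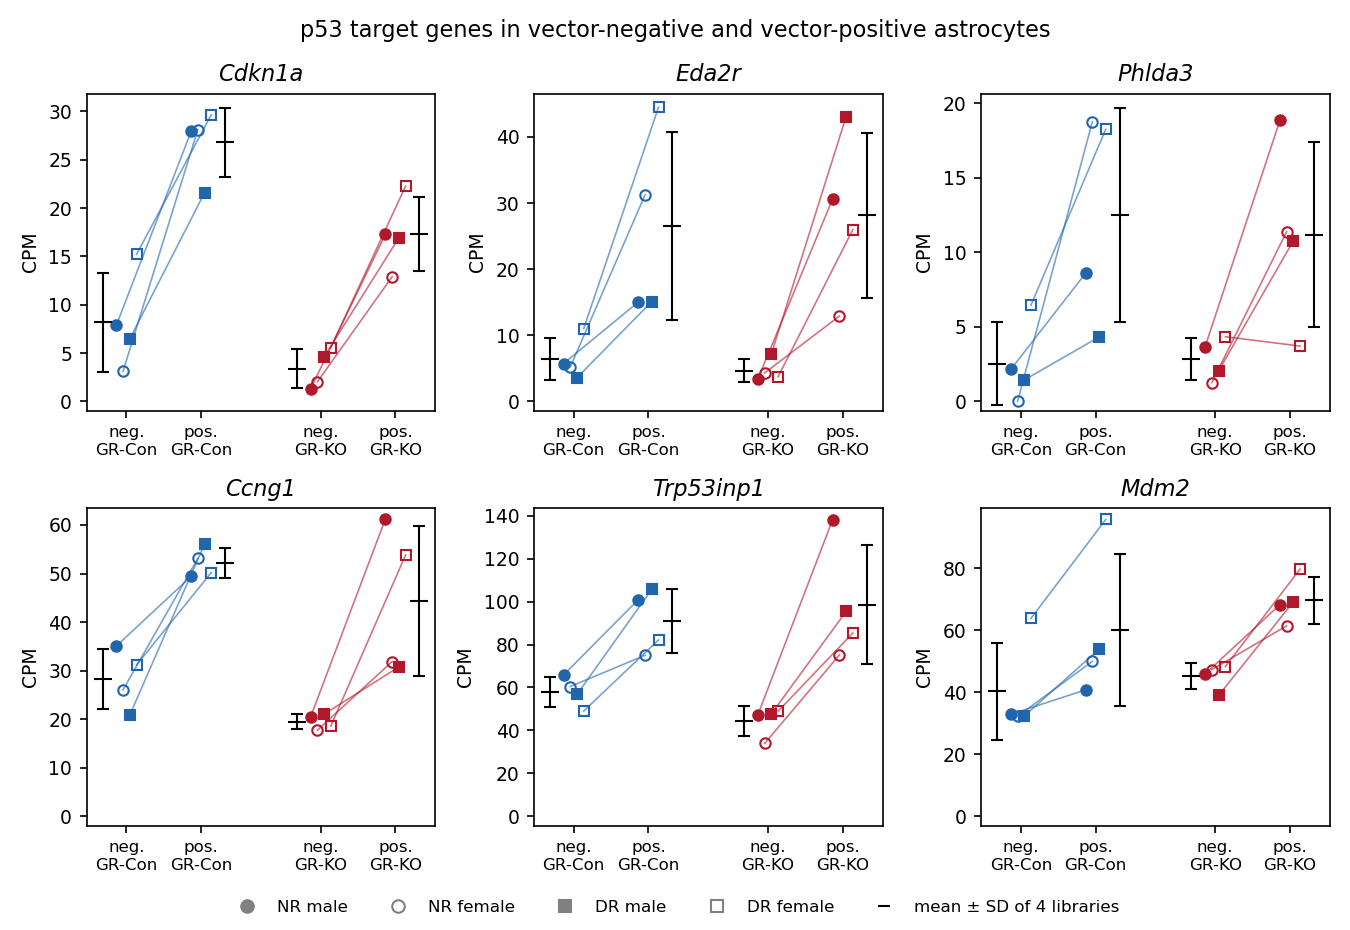
CPM of 6 p53 target genes (y axis, linear, a scale per panel) in vector-negative (neg.) and vector-positive (pos.) astrocytes of each library, with a line joining the 2 sums of 1 animal, GR-Con in blue, GR-KO in red and the mean ± SD of 4 libraries in black. The lines rise in both genotypes, for Cdkn1a from 1.31 to 5.58 up to 12.9 to 22.3 CPM in GR-KO, except for Phlda3 in the DR GR-KO female (4.34 to 3.71 CPM).

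Outside the list, 2 genes were chosen after their values were seen. Trp53cor1 (chr17:29057430-29079179, minus strand), the long noncoding RNA known as lincRNA-p21 that lies next to Cdkn1a, had 40.0, 38.7, 33.8 and 35.3 CPM in positive and 13.1, 13.7, 15.4 and 13.6 CPM in negative GR-KO nuclei (1.42 ± 0.18, adjusted p = 1.86e-06), and in GR-Con it gave 0.77 ± 0.21 and did not pass (adjusted p = 0.0987). Polk, a DNA polymerase of lesion bypass, rose by 0.91 ± 0.15 in GR-KO (adjusted p = 8.47e-05) and by 0.86 ± 0.19 in GR-Con (adjusted p = 0.0150). The groups did not overlap for either gene in GR-KO.

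The promoter windows of 4 of these p53 targets are shown because they hold a match to the p53 half-site, the 10-base consensus of which a full p53 response element holds a pair. Each window runs from 250 bases before to 50 bases after the annotated start (RefSeq, GRCm38.p6), is written 5′ to 3′ on the gene's strand, and has the matches in capitals. The consensus reads the same on both strands.
Cdkn1a, chr17:29090729-29091028, plus strand: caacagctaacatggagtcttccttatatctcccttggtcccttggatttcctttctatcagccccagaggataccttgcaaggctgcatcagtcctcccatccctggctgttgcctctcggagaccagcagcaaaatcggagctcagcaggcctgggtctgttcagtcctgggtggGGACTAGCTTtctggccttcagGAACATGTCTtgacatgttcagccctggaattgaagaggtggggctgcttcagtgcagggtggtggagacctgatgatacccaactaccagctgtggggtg
Ccng1, chr11:40755237-40755536, minus strand: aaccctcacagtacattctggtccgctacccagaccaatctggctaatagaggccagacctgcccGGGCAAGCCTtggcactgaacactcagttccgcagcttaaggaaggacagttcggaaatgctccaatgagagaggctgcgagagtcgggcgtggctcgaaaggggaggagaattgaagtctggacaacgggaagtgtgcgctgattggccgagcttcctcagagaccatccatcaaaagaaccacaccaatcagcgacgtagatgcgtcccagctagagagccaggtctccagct
Mdm2, chr10:117710709-117711008, minus strand: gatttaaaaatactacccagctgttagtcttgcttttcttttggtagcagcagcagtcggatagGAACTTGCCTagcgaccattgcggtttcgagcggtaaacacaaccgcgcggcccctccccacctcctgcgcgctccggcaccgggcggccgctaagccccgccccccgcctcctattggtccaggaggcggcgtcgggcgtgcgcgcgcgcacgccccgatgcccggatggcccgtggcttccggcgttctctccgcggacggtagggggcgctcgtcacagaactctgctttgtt
Bax, chr7:45466849-45467148, minus strand: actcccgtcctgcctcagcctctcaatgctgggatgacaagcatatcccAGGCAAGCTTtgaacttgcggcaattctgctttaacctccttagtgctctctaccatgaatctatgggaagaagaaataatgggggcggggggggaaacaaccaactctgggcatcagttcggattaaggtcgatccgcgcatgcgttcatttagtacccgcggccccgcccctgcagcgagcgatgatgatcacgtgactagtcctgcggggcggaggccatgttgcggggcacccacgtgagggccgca

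Cdkn1a held 2 matches, at bases 178 to 187 and 200 to 209 of its window, and the other 3 genes held 1 each, at bases 66 to 75 in Ccng1, 65 to 74 in Mdm2 and 50 to 59 in Bax. Of the 7 list members that were higher in GR-KO, 6 had a window, of which 4 held a match. Of all 12 list members, called or not, 10 had a window, of which 5 held a match. The 4 are also counted among the genes higher in positive GR-KO nuclei given next. For comparison, a match was found in 9.55% of all 27025 windows, in 8.32% of those of tested genes, in 16 of 92 windows of genes higher in positive GR-KO nuclei (17.4%) and in 14 of 149 windows of genes lower (9.40%). A full glucocorticoid response element, AGAACA and TGTTCT with 3 bases between them, was found in 3 of the 27025 windows and in 0 of those of the genes called. This exact string is far rarer than the p53 half-site, with a match in 1 of 8735 windows of tested genes. The 0 therefore cannot set the genes called apart, and the 2 motifs are not compared. A match is a string of letters and does not show binding, and its absence from these windows says nothing of sites elsewhere.

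The 4 genes with the smallest adjusted p in GR-KO, Scel, Ano3, Exoc4 and Gm42047, passed in both genotypes. Scel (chr14:103513342-103612797, plus strand), which encodes sciellin, had 4.71, 6.07, 3.08 and 1.86 CPM in positive and 70.9, 87.6, 57.0 and 68.1 CPM in negative GR-KO nuclei (−4.04 ± 0.22, adjusted p = 5.56e-15). It was lower in GR-Con too (−2.06 ± 0.29, adjusted p = 2.48e-05), with 0 to 28.1 CPM in positive and 24.5 to 58.9 CPM in negative nuclei, and the difference between genotypes was −1.98 ± 0.48 (adjusted p = 0.0599). The lincRNA Gm42047 (chr8:121833247-121841178, plus strand) had 507, 334, 443 and 625 CPM in positive and 74.9, 79.5, 162 and 231 CPM in negative GR-KO nuclei (1.94 ± 0.12, adjusted p = 1.07e-13), and it gave 1.62 ± 0.12 in GR-Con (adjusted p = 4.56e-11).

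Ano3, a member of the anoctamin family of membrane proteins, had 289, 172, 271 and 291 CPM in positive and 78.8, 61.5, 57.0 and 57.6 CPM in negative GR-KO nuclei (1.90 ± 0.10, adjusted p = 5.56e-15). It was higher in GR-Con by 1.55 ± 0.13 (adjusted p = 2.18e-10), and the groups did not overlap in either genotype. Exoc4, a subunit of the exocyst that tethers secretory vesicles, rose by 1.00 in GR-KO and 0.81 in GR-Con, and Gas6, a ligand of the phagocytic TAM receptors, by 1.41 and 1.07. Cox6b2, a subunit of cytochrome c oxidase (2.15 and 1.71), Pvt1, a noncoding RNA next to Myc (1.20 and 1.10), Anks1b (0.97 and 0.89) and Lrp1b, a lipoprotein receptor relative (0.48 and 0.37), passed in the same direction in both. Scel was tested through the negative nuclei alone in GR-KO, and Cox6b2 through the positive nuclei alone in GR-Con. In all, 23 genes passed as higher and 24 as lower in both genotypes.

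Among the other leading genes lower in positive GR-KO nuclei, Dcc, the netrin receptor, gave −0.62 in GR-KO and −0.68 in GR-Con, Kcnq3, a potassium channel subunit, −0.58 and −0.56, and Rgs6, a regulator of G protein signalling, −0.75 and −0.43, and all passed in both. Dcc had 544 to 1274 CPM in positive and 1073 to 1606 CPM in negative GR-KO nuclei, so that animals overlapped although each animal's positive value was the lower one. Dcc and Kcnq3 did not pass in GR-KO without the block. Gpc5, a glypican abundant in astrocytes, had 6306 to 8513 CPM in positive and 9058 to 10293 CPM in negative GR-KO nuclei, a difference of −0.38 ± 0.04 (adjusted p = 1.26e-08). In GR-Con Gpc5 gave −0.13 ± 0.03 (adjusted p = 0.0757), and Lhfp, which passed in GR-KO (−0.68), gave −0.27 (adjusted p = 0.420).

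The 30 genes of smallest p among those that bulk RNA-seq gave as higher in GR-KO astrocytes passed at about the share of all genes (1.14% higher and 1.75% lower). Of 28 tested, 1 was higher, Phldb2 (0.44, adjusted p = 0.0201), and 1 was lower, the receptor tyrosine kinase gene Alk (−0.71, adjusted p = 6.80e-03), with a median of −0.06, and both calls were lost with DESeq2, without the block, without the NR male and without the DR male. Them4, a thioesterase, had 111, 84.2, 145 and 111 CPM in positive and 131, 88.1, 149 and 102 CPM in negative GR-KO nuclei (−0.11 ± 0.09, adjusted p = 0.736). The GR-Con nuclei held 12.5 to 32.4 CPM when positive and 25.1 to 32.3 CPM when negative. Both GR-KO sets were thus above both GR-Con sets and overlapped each other.

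Extracellular matrix genes named by the study were examined as a further list. Vcan, which encodes the proteoglycan versican, had 52.6, 91.1, 115 and 76.1 CPM in positive and 76.2, 89.9, 130.3 and 109.6 CPM in negative GR-KO nuclei (−0.28 ± 0.11, adjusted p = 0.225). Tnc, for tenascin C, gave 0.22 ± 0.10 (adjusted p = 0.403). Of the 12 matrix genes, Cntn1 and Scrg1 were lower (1.75% of all genes were) and Mmp2 was higher (1.14% of all genes were). Mmp2, a matrix metalloproteinase, had 10 UMIs in all 4 negative and 26 in all 4 positive sums, with 1 against 1 in the NR female. It was tested through the positive nuclei alone, and its call was lost without the DR female. Of the list higher in bulk GR-KO, the urea transporter gene Slc14a1 gave 0.37 ± 0.19 (adjusted p = 0.447).

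The 2 kinds of nuclei were also compared between genotypes, over animals and with rearing in the fit. These comparisons share their nuclei with those above, so their values are set side by side only. Depth was matched within libraries and not between genotypes. Library median depths ranged from 4889 to 12124 UMIs in GR-KO and from 5307 to 7199 in GR-Con astrocytes, and their part was not tested. In negative nuclei, 278 of 11181 genes (2.49%) differed between GR-KO and GR-Con, 95 higher (0.85%) and 183 lower (1.64%), and in positive nuclei 273 of 7837 (3.48%), 82 higher (1.05%) and 191 lower (2.44%). Leaving out 1 library gave 108 (without the DR GR-KO male) to 531 (without the DR GR-Con female) in negative and 134 (without the NR GR-Con male) to 370 (without the DR GR-Con female) in positive nuclei. The list lower in bulk GR-KO had 21 of 29 members lower in negative nuclei (median −1.0) and 23 of 26 in positive nuclei (median −1.66). The list higher in bulk GR-KO had 17 of 27 members higher in negative nuclei (median 0.89) and 13 of 25 in positive nuclei (median 1.08). In the positive nuclei 10 of the 26 members of the first list were tested through GR-Con alone and 12 of the 25 of the second through GR-KO alone, so these counts and medians partly reflect the filter. Fitted with no filter, all 30 of the first list gave 23 lower in negative (median −1.0) and 26 lower in positive nuclei (median −1.64), and all 30 of the second 17 higher in each (medians 0.88 and 1.09). Of the p53 list, 0 of 8 passed in negative (median −0.30) and 0 of 9 in positive nuclei (median 0.03). With no filter 0 of 12 passed in each (medians −0.10 and 0.05).

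For single genes, Etnppl differed between genotypes by −2.42 ± 0.29 in negative nuclei (adjusted p = 8.76e-04) and by −6.06 ± 0.45 in positive nuclei (adjusted p = 2.82e-07), where it was tested through GR-Con alone. Hif3a gave −1.83 ± 0.10 (adjusted p = 1.72e-06) and −2.77 ± 0.17 (adjusted p = 1.45e-08), and Cdh19 −1.40 ± 0.24 (adjusted p = 7.00e-03) and −2.49 ± 0.33 (adjusted p = 1.77e-04). Them4 gave 2.06 ± 0.18 (adjusted p = 1.18e-04) in negative and 2.59 ± 0.26 (adjusted p = 2.01e-05) in positive nuclei, where it was tested through GR-KO alone. Negative nuclei of GR-KO animals therefore already differed from negative nuclei of GR-Con animals in both lists. How many of them carried Cre without a captured UMI was not tested.

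**Figure D4:**
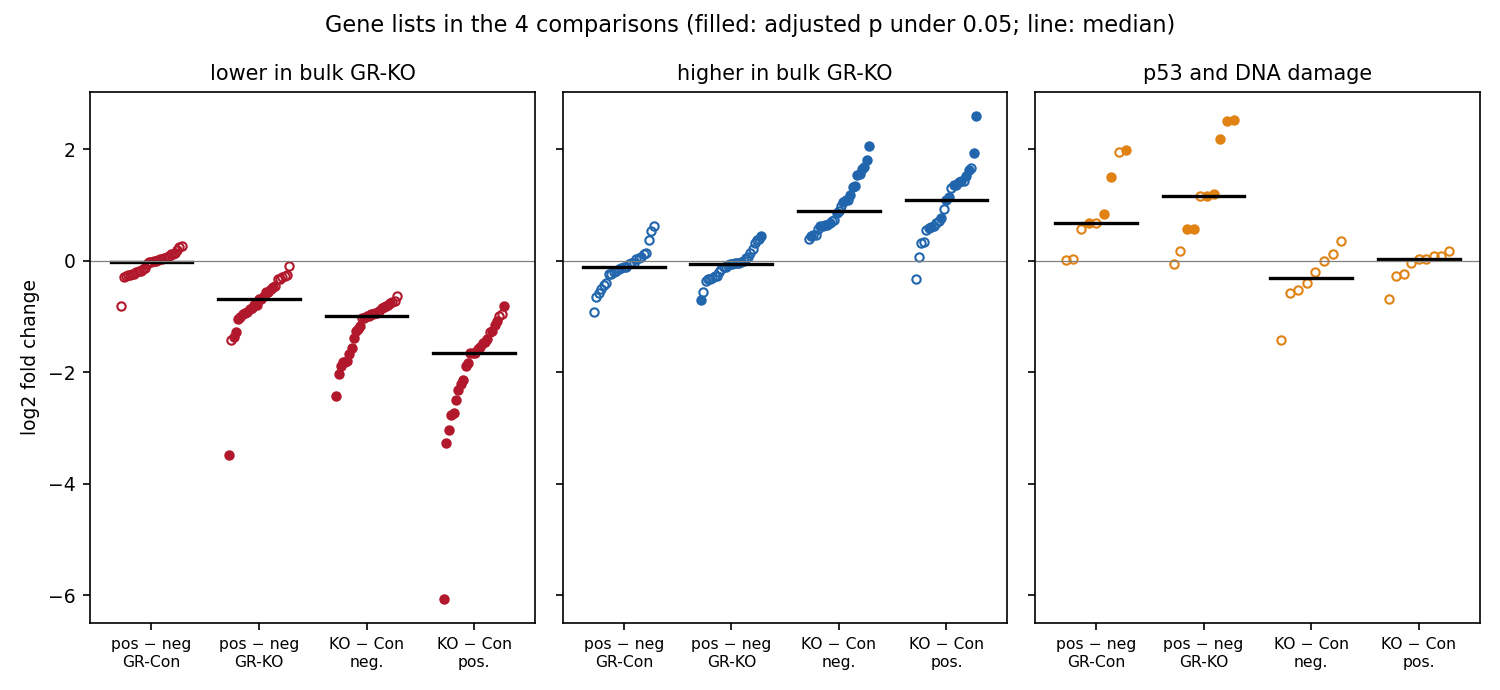
Log2 fold change (y axis) of each tested member of 3 gene lists in 4 comparisons (x axis): positive minus negative nuclei in GR-Con and in GR-KO, then GR-KO minus GR-Con in negative and in positive nuclei, with filled points past an adjusted p of 0.05 and a line at the median. The medians of the list lower in bulk GR-KO are −0.02, −0.68, −1.0 and −1.66, those of the list higher in bulk GR-KO −0.11, −0.06, 0.89 and 1.08, and those of the p53 list 0.68, 1.16, −0.30 and 0.03.

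The number of vector UMIs per nucleus was used to describe the levels further, over all GR-KO astrocytes without matching (3882 nuclei at 0, 324 at 1 and 156 at 2 or more) and with no test. Etnppl had mean levels of 40.7 ± 13.5, 7.15 ± 7.99 and 1.43 ± 2.85 CPM (SD, n = 4 libraries) at 0, 1 and 2 or more UMIs, the last 2 from 15 UMIs and 1 UMI of Etnppl, so that no step between them can be read. Fkbp5 had 14.3, 3.66 and 4.43 CPM, the last 2 from 9 and 7 UMIs. Hif3a had 75.4, 46.5 and 41.4 CPM and Cdh19 105, 58.6 and 64.9 CPM, so nuclei with 1 UMI were already close to those with more. Cdkn1a had 3.29, 13.4 and 21 CPM (90, 29 and 33 UMIs, SD 1.24, 8.98 and 10.6) and Eda2r 5.26, 25.3 and 30.6 CPM (147, 54 and 44 UMIs, SD 0.807, 13.2 and 13.7). Them4 had 112, 115 and 106 CPM and Gfap 77.6, 73.8 and 86.7 CPM. Median depth over the libraries ranged from 4894 to 12020 UMIs at 0, from 4765 to 12539 at 1 and from 5340 to 13554 at 2 or more, and its part in these levels was not tested.

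Rearing was compared by testing whether the difference between positive and negative GR-KO nuclei differed between DR and NR, with 2 animals each. It passed for 2 of 11188 genes (0.0179%), both lower in DR, against 550 at an unadjusted p under 0.05. Myoc, which encodes the secreted protein myocilin, had 17.3 and 25.8 CPM in positive and 1.31 and 2.79 CPM in negative nuclei of the NR male and female. In the DR male and female it had 13.8 and 16.7 CPM in positive and 25.1 and 29.7 CPM in negative nuclei, a difference of −4.19 ± 0.50 (adjusted p = 3.75e-05). Negative GR-KO nuclei were higher in DR than in NR, while positive ones ranged from 13.8 to 25.8 CPM. In GR-Con, Myoc varied between animals of the same rearing. There the negative nuclei of the NR male, NR female, DR male and DR female held 26, 2, 67 and 0 UMIs. The positive ones held 5, 3, 16 and 0. How far differences between animals enter this contrast was not tested. Gm42047 differed by −0.97 ± 0.16 (adjusted p = 8.89e-03), with a rise in all 4 GR-KO animals. DESeq2 called 1 gene, and 0 passed without the nuclei of highest neuron-enriched share.

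The other lists are given beside the 1.75% of all genes that were lower and the 1.14% that were higher. None of 7 tested genes of reactive astrocytes passed in GR-KO, with Gfap at 96.6, 83.5, 78.5 and 63.1 CPM in positive and 87.0, 76.5, 79.0 and 70.0 CPM in negative nuclei (0.05 ± 0.10, adjusted p = 0.918). Of 18 genes of interferon response and nucleic acid sensing 6 could be tested and 0 passed, and for both lists the number stayed at 0 under every alternative. Among 12 astrocyte transcription factors Hes5, a Notch effector, was lower (−0.45, adjusted p = 0.0159), and Sox9, Nfia and Nfib did not pass. Of 9 regional genes Chrdl1, a secreted antagonist of bone morphogenetic proteins (−0.38), and Eogt, a glycosyltransferase (−0.36), were lower. Of the 11 astrocyte markers Slc1a2 (−0.25), Slc1a3 (−0.20) and Ntsr2 (−0.23) were lower, and of 6 AAV entry factors Pdgfrb alone was. The call of Hes5 was lost in 8 of 17 alternatives and that of Ntsr2 in 9, and those of Slc1a3, Chrdl1 and Eogt were lost with DESeq2 and without the block. The 8 proliferation genes had too few counts to be tested.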

How the data were processed

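Single-nucleus RNA-seq libraries (10x Genomics 3′ chemistry) of P21 V1 were analysed from 1 deposited matrix of UMI counts per gene and nucleus, made by the authors with Cell Ranger 8.0.1 and Seurat 5.3.0 on mm10 (tools and build per the submitters' processing notes). The deposited counts were not normalized. Cell types, sex, and genotype were taken from the authors' table of nuclei, which also holds deposited percent values of mitochondrial reads. The authors removed doublets with DoubletFinder, and no further nucleus was removed here. The library names there give rearing, vector and sex and no replicate number, so each library was matched to a group and not to 1 labelled replicate. Genes and lists were chosen with earlier results of these data known.

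Within each library every positive nucleus took its 3 nearest negatives in log2 UMIs (at most 0.2 away). Counts were summed per library and status and tested with edgeR 4.0.16 (R 4.3.3): filterByExpr, TMM, quasi-likelihood F-test, library as a block, Benjamini-Hochberg over all genes tested. EGFP, Cre and delCre stayed out of the tests. The SE given with a log2 fold change is its absolute value divided by the square root of the F statistic. It is thus derived from the test and was not estimated apart from it. The pairing comes from the design, since both sums of a library are the same animal. The 2 animals per group are the replicates. CPM are counts per 1000000 UMIs of a sum and are not divided by gene length, so levels are not compared between genes. The fitting step alone was run on counts simulated from the fitted means and dispersions of the sums. The choice and matching of nuclei were not simulated, so that run cannot check them. Alternatives covered the number of matches, the definition of a positive nucleus, DESeq2 1.42.0, normalization, filters, the block and each library left out. Named genes were up to 8 per direction with the smallest adjusted p in GR-KO, up to 3 per direction for the difference between genotypes (all 18 are given), called list members with the 2 of highest CPM, and a set of 17 receptor-dependent or reference genes. Gene positions are from GENCODE vM21 (GRCm38). Of 26711 features 26006 matched 1 gene there.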

Additional observations from a re-analysis of the deposited data

Results flagged for a closer look

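The vector difference in GR-KO differed from that in GR-Con, by the test of the difference, for 18 genes. On the log2 scale it was more negative in GR-KO for Etnppl (−3.50), Fkbp5 (−2.41), Cntn1 (−1.36), Cdh19 (−1.14), Asic2 (−0.98), Hif3a (−0.98), Ubash3b (−0.82), Lrrc8c (−0.79), Mgat4c (−0.76), Aldh1a1 (−0.76), Kcnd2 (−0.60), Mdga2 (−0.35), Kirrel3 (−0.30) and Gpc5 (−0.25), and more positive for Igfbp5 (1.30), Car10 (1.07), Pde10a (0.61) and Csmd1 (0.41). Etnppl, Cntn1, Asic2, Cdh19, Hif3a, Aldh1a1, Car10 and Mdga2 passed whichever library was left out. With EGFP alone as the criterion in both genotypes, Lrrc8c, Pde10a and Ubash3b did not pass.

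The vector difference in GR-KO differed between DR and NR for Myoc (−4.19) and Gm42047 (−0.97). For Myoc the negative nuclei carried the contrast, with 1.31 and 2.79 CPM in NR and 25.1 and 29.7 CPM in DR. Negative GR-Con nuclei held 26 and 2 Myoc UMIs in NR and 67 and 0 in DR, male before female.

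Tsc22d3 in negative GR-KO nuclei had 1 library apart from the rest, the NR male at 45.2 CPM against 28.2 to 31.0 CPM in the other 3, a gap of 0.838 of the whole range. Of 46 groups of 4 libraries examined this was the 1 that stood out, and chance gives about 1 in 20.

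The delCre feature, which belongs to the control vector, was found in 3.05% of GR-KO astrocytes as a mean of 4 libraries, against 2.18% of GR-Con astrocytes. Whether RNA of the Cre vector was counted under delCre was not tested. In GR-KO oligodendrocytes and their precursors it was found in 4 of 4001 nuclei.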

How the results depend on the processing

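Numbers of genes called are given for 6 comparisons. For positive against negative nuclei in GR-KO (324), Cre alone as the criterion gave 189, a threshold of 2 or more UMIs 160, DESeq2 112 (49 higher and 63 lower) and the fit with no replicate block 119 (63 higher and 56 lower, against 128 and 196). Leaving out 1 library gave 182 to 335, lowest without the NR male and 190 without the DR female. In GR-Con (67), no matching gave 123, 2 or more UMIs 11, the likelihood ratio test 103, DESeq2 26, no filter 123, no replicate block 6 and leaving out 1 library 26 to 64 (26 without the NR male, 31 without the DR male, 44 without the DR female). For the difference between genotypes (18), 2 or more UMIs gave 2, DESeq2 8, no replicate block 0 (with 0 of the paired calls left) and leaving out 1 library 14 to 28, highest without the DR GR-Con female. For GR-KO against GR-Con, 2 or more UMIs gave 112 in negative (278) and 79 in positive nuclei (273), the likelihood ratio test gave 420 in negative nuclei, and leaving out 1 library gave 108 to 531 and 134 to 370, the highest in each without the DR GR-Con female and the lowest without the DR GR-KO male and the NR GR-Con male. Sex as a replicate block gave 314 and 274. For DR minus NR (2), no matching, Cre alone, DESeq2 and no replicate block gave 1 each, 2 or more UMIs and leaving out nuclei above percentile 75 of the neuron-enriched share 0 each, the likelihood ratio test and no filter 5 each, and leaving out 1 library 1 to 5. The causes were not tested. A stricter definition of a positive nucleus also leaves fewer UMIs and fewer genes to test. Of the named genes called in GR-KO (63), 34 passed in every alternative that gave a value and 45 without the block. No named value reversed its direction while called. Depth limits the precision of low values, such as those of Etnppl (13 UMIs) and Fkbp5 (14 UMIs) in positive GR-KO nuclei.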
